A study of Mus musculus with 63 samples.

Results

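The transcripts described here are those of the mitochondrial genome, a circular DNA of 16299 bases in the mouse. Every gene whose symbol starts with mt- was taken, which gave 37 of the 55291 gene symbols counted: 13 protein-coding genes, 2 ribosomal RNA (rRNA) genes and 22 transfer RNA (tRNA) genes. The rule uses names only and no measured value. The 37 genes were followed through all 63 libraries, so that level, region, lesion, genotype and co-immunoprecipitation (coIP) could be compared for the same transcripts.

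The libraries were made from organotypic entorhino-hippocampal tissue cultures, brain slices that keep the entorhinal cortex, the dentate gyrus (DG) and CA3 alive in a dish. The study asked how denervation by an entorhinal cortex lesion (ECL) changes the transcriptome of these regions, and which transcripts associate with synaptopodin, an actin-associated protein of dendritic spines. All cultures were prepared at postnatal days 3 to 5 from mice of either sex and grown for at least 18 days. Lesioned cultures had the perforant path, the fibres from entorhinal cortex to DG and CA3, cut with a scalpel and were harvested 3 days later, while control cultures were left intact.

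Wildtype (WT) cultures came from C57BL/6J mice and the others from B6.129-Synpo tm1Mndl/Dllr mice, labelled synaptopodin-deficient (Synpo-/-) and called SPKO here. The regional experiment has 39 libraries, each from the isolated DG or CA3 of 1 culture. WT CA3 has 2 control and 3 ECL libraries, WT DG 4 and 7, SPKO CA3 6 and 6, and SPKO DG 7 and 4. The coIP experiment has 24 libraries, each from a pool of 5 to 6 whole cultures (6 by the labels). In WT cultures there are 5 input and 5 coIP libraries without lesion and 5 and 5 with ECL. In SPKO cultures there are 2 and 2, and their titles do not say whether the cultures were lesioned. An antibody against synaptopodin was bound to protein A beads and incubated with a detergent lysate to give the coIP, and the precleared lysate itself is the input. The SPKO coIP holds what the beads and antibody take from tissue labelled as lacking the protein, and was the study's control for non-specific binding. A pool or culture is the replicate, and nothing in the sources says that the cultures of a group came from separate animals, so p-values measure the spread between these samples, which may be technical. In such bulk samples, fewer cells of a type and less RNA per cell cannot be told apart.

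Total counts ran from 11601154 to 53682143 per library. In the regional libraries and inputs, the label Synpo-/- did not go with lower counts of the targeted gene. Synpo read 46.7 to 71.1 CPM (counts per 1000000 counts of the library) in SPKO DG controls and 21.1 to 27.2 CPM in WT DG controls. The inputs overlapped, with 24.9 and 28.5 CPM in SPKO and 17.9 to 30.9 CPM in WT. Which part of the gene is deleted was not known from the sources used here. Counts of RNA over the whole gene do not measure the protein. The paper describes these cultures as without the spine apparatus, an organelle of dendritic spines. The libraries are therefore named by their label. WT DG ECL replicate 5 had 12.7 CPM of Prox1, the dentate granule cell marker, where the other DG libraries had 123 to 235 CPM and the CA3 libraries 11.2 to 39.0 CPM. Numbers of members called in the comparisons that use that library are given with and without it. CPM ranges and the values of markers, nuclear genes and pseudogenes are given with it only.

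The mitochondrial genome is transcribed from both strands as long precursor RNAs that cover almost its whole length. The tRNA genes lie like punctuation between most of the other genes, and cutting them out of the precursor releases the rRNAs and mRNAs. The proteins encoded are core subunits of respiratory chain complexes I, III and IV and of the ATP synthase (complex V), while the nucleus encodes their remaining subunits and all of complex II. Most of the mRNAs carry short poly(A) tails and the mature tRNAs do not. In neurons mitochondria supply ATP and buffer calcium at synapses.

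In GRCm38 the 37 genes cover 15365 bases of the mitochondrial chromosome. The longest stretch without a gene is the control region at chrM:15423-16299 on the reference, which holds the promoters. It is bordered by mt-Tp (tRNA for proline) and mt-Tf (tRNA for phenylalanine). These are the tRNA genes with the highest counts together with mt-Tn (asparagine). They are printed with 3 tRNA genes that were called in the SPKO coIP, mt-Tq (glutamine), mt-Ta (alanine) and mt-Tc (cysteine). These 3 were picked after their values were seen. In the WT coIP mt-Tc was not called, and mt-Tq and mt-Ta had too few counts to be tested. The sequences were read from the GRCm38 genome file, 5′ to 3′ on the strand of the gene, and the capitals mark the anticodon. The genes lie at chrM:15356-15422 (minus strand), chrM:1-68 (plus), chrM:5089-5159 (minus), chrM:3772-3842 (minus), chrM:5018-5086 (minus) and chrM:5192-5257 (minus).
mt-Tp: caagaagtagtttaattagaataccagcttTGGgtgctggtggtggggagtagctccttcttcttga
mt-Tf: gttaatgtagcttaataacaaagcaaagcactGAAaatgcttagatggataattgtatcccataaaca
mt-Tn: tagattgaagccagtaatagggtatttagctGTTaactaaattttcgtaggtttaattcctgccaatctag
mt-Tq: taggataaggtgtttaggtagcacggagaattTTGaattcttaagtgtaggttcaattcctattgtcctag
mt-Ta: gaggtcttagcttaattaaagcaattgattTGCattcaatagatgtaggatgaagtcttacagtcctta
mt-Tc: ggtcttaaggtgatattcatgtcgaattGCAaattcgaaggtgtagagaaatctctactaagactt

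A large part of the mitochondrial genome exists again in the nucleus. An alignment with blastn at 80% identity or more found 36 nuclear copies, and the longest lies at chr1:24611535-24616188 on the minus strand. Its 4654 aligned bases are 99.936% identical to chrM:6390-11042, which is 28.548% of the mitochondrial chromosome, and differ at 3 places. Counted from position 1 of the mitochondrial chromosome these are A6393T in mt-Co1, T9461C in mt-Nd3 and 1 inserted A in mt-Tr at 9828. The windows below show how alike the copies are, in the direction of the mitochondrial plus strand, with the differing base in capitals.
mt-Co1, chrM:6390-6413: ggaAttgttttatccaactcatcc
chr1 copy, chr1:24616165-24616188: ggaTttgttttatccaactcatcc
mt-Nd3, chrM:9441-9481: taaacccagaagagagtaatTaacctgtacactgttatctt
chr1 copy, chr1:24613097-24613137: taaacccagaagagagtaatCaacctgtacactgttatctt
mt-Tr, chrM:9809-9848: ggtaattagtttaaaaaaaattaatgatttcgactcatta
chr1 copy, chr1:24612729-24612769: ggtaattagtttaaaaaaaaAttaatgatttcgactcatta

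The annotation lists 7 pseudogenes along this chr1 copy, Gm28439, Gm10222, Gm28438, Gm28437, Gm10925, Gm28661 and Gm29216. A read of 100 bases taken from the mitochondrial genome matches the nuclear genome exactly at 29.4% of start positions, and a read of 150 bases at 26.6%. Reads were 100 bases long in the regional experiment and 150 in the coIP experiment, sequenced in pairs. How the counting treated reads that match both places is not given in the sources used here, and values of the genes inside the copy are uncertain for that reason.

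Sharing of another kind lies between neighbouring genes. mt-Nd5 and mt-Nd6 (both subunits of complex I) meet tail to tail on opposite strands over 14 bases at chrM:13552-13565, and mt-Atp8 and mt-Atp6 (both subunits of complex V) share 43 bases at chrM:7927-7969. The shared bases are in capitals, on the plus strand.
mt-Nd5 and mt-Nd6: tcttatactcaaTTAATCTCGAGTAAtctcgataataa
mt-Atp8 and mt-Atp6: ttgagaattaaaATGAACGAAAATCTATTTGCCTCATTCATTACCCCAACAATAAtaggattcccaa
Counting ignored the strand, so mt-Nd6, the only protein-coding gene on the minus strand, and any antisense RNA of the plus-strand transcripts across it cannot be told apart. The same holds for the tRNA genes on the minus strand, among them mt-Tp, mt-Tn, mt-Tq, mt-Ta and mt-Tc.

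The 37 genes took 6.24% to 13.6% of all counts in the regional libraries, 1.83% to 3.04% in the inputs and 4.15% to 6.27% in the coIP libraries. Every input lay below every coIP library and every regional library, and the highest coIP library just reached the lowest regional ones. The experiments differ in dissection, lysis, pooling and read length, so their levels are set side by side only, and the source of the difference cannot be told apart.

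**Figure D1:**
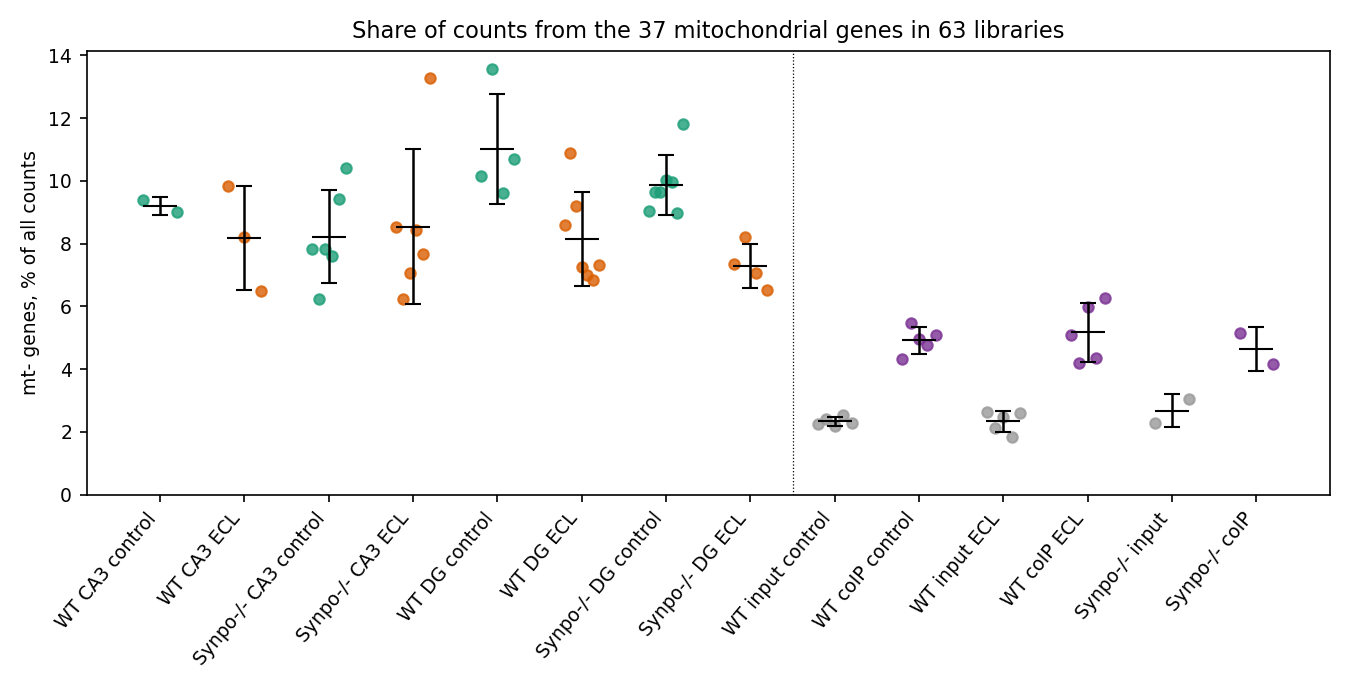
Share of all counts in the 37 mitochondrial genes (percent, y axis) in each of the 63 libraries (points) by group (x axis), with mean and SD as bars. Regional libraries sit between 6.24% and 13.6%, inputs between 1.83% and 3.04% and coIP libraries between 4.15% and 6.27%.

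The make-up of these counts also differed. The 2 rRNAs, the RNA components of the mitochondrial ribosome, made up 45.3% to 72.2% of the mitochondrial counts in the regional libraries and 19.1% to 27.7% in the coIP experiment. The mRNA of mt-Cytb (cytochrome b, of complex III) took 4.26% to 13% in the regional and 25.8% to 34.3% in the coIP experiment. The 2 experiments did not overlap in either share. The tRNA genes together took 0.110% to 0.172% of the mitochondrial counts in the regional and 0.174% to 0.425% in the coIP experiment.

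**Figure D2:**
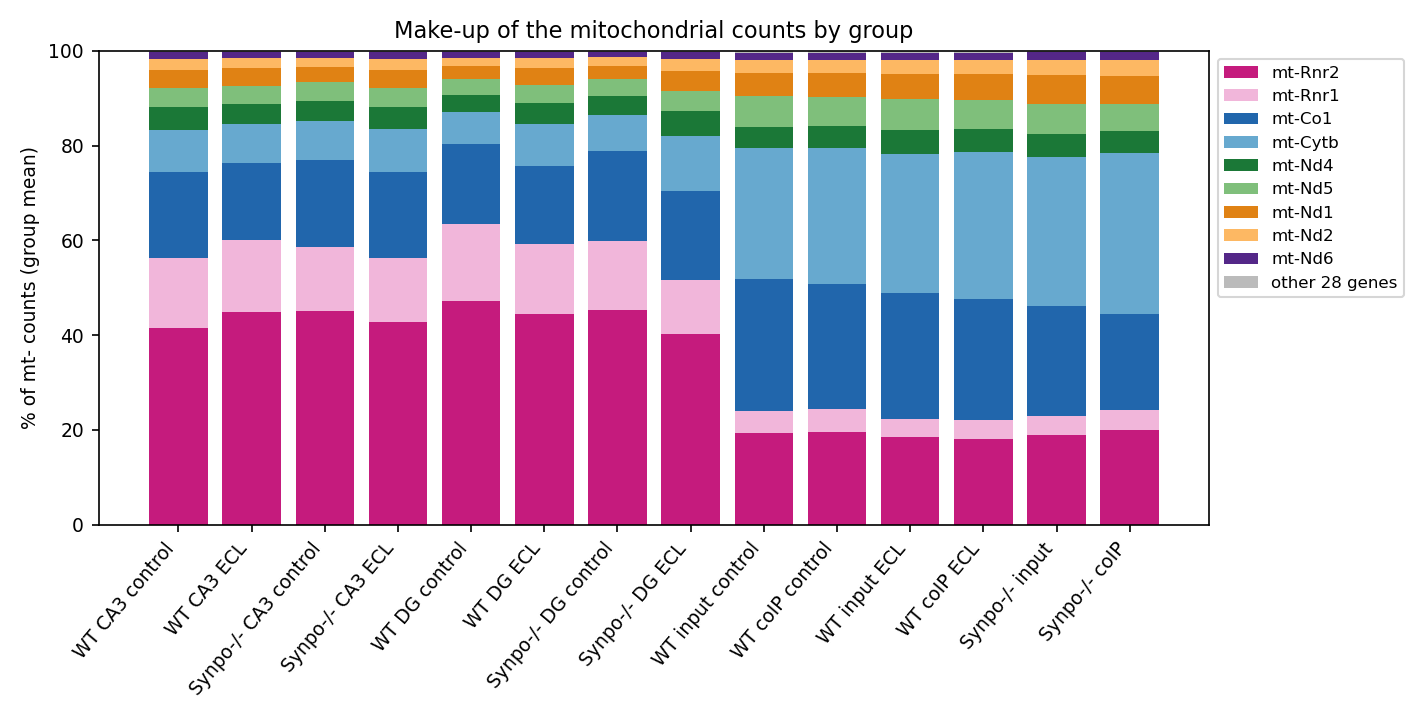
Mean make-up of the mitochondrial counts in each group, as stacked percentages of all mitochondrial counts (y axis) for the 2 rRNAs and the main mRNAs. The rRNAs reach 51.7% to 63.5% of the bar in the DG groups and 22.0% to 24.4% in the input and coIP groups.

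Per length of the whole gene, the 2 rRNAs led in the regional libraries, with a mean of 24741 CPM per kb for mt-Rnr2 (the large rRNA) and 13309 CPM per kb for mt-Rnr1 (the small rRNA). mt-Co1 (the catalytic subunit of complex IV) followed with 10010 CPM per kb and mt-Cytb with 6445. In the coIP experiment mt-Cytb led with 9636 CPM per kb, before mt-Co1 with 6089, mt-Rnr2 with 4428 and mt-Rnr1 with 1676.

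The complex I mRNAs mt-Nd1, mt-Nd4, mt-Nd6, mt-Nd5 and mt-Nd2 held a middle range of 1714 to 3085 CPM per kb in the regional libraries. The remaining mRNAs were far lower: mt-Nd3 read 71.8, mt-Nd4l 41.1, mt-Co3 11.9, mt-Atp6 3.61, mt-Co2 2.42 and mt-Atp8 0.959 CPM per kb. All 6 of these low genes lie inside the chr1 copy, where 77.0% to 100% of the 100-base windows also occur in the nuclear genome. The 7 higher mRNAs share 0% to 60.0% of their windows. In the coIP experiment the same division held, with 5.38 to 40.3 CPM per kb for the 6 genes and 1030 to 9636 CPM per kb for the 7 genes. mt-Co3 and mt-Atp6 are core subunits of complexes IV and V that the respiratory chain needs beside mt-Co1, so the low counts of genes within the copy are set beside their shared windows here, and the part of shared windows in them was not tested.

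**Figure D3:**
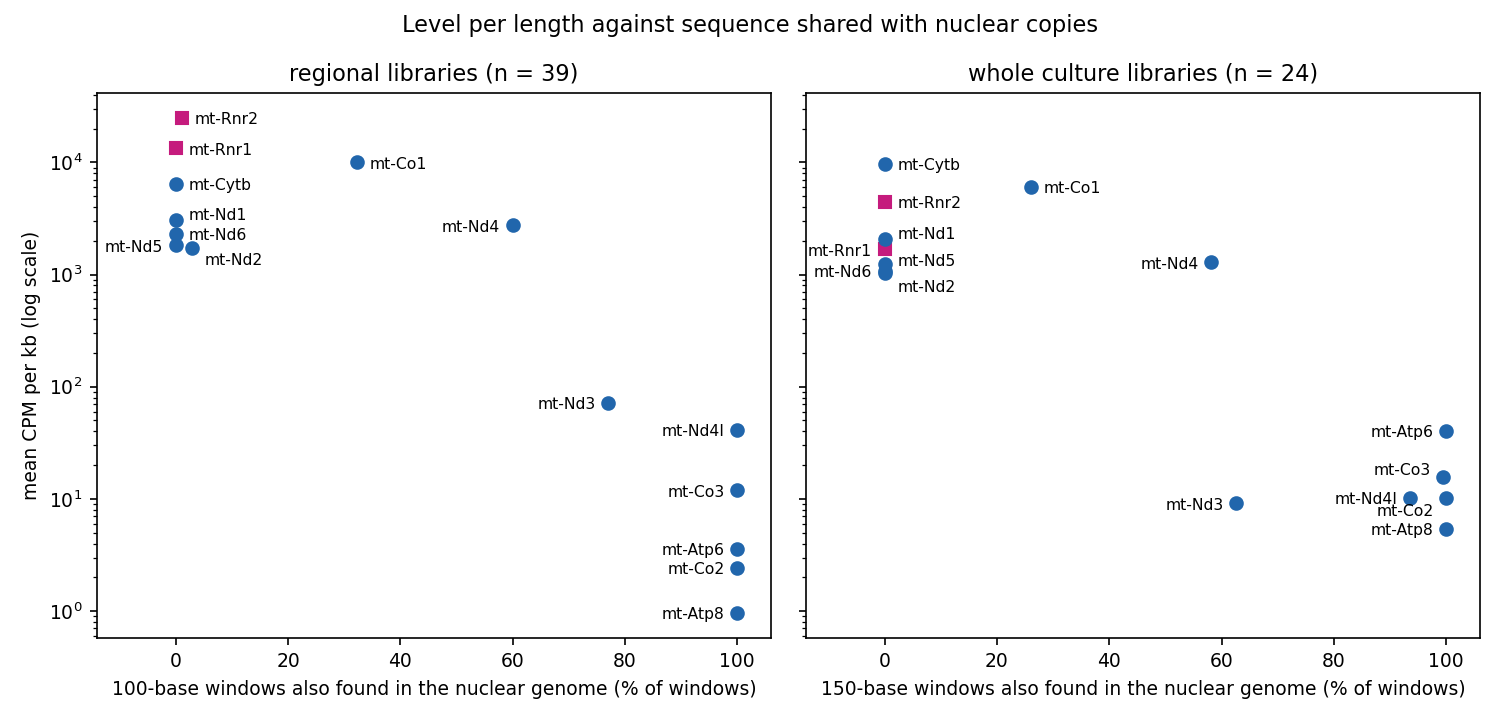
Mean CPM per kb (y axis, log scale) of the 13 mRNAs (circles) and 2 rRNAs (squares) against the percentage of windows of read length that also occur in the nuclear genome (x axis), for the regional and the coIP experiment. The 6 mRNAs at 62.6% or more lie at 71.8 CPM per kb or lower, and the 7 mRNAs at 60.0% or less lie at 1030 CPM per kb or higher.

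mt-Co1 and mt-Nd4 lie partly inside the copy, with 32.3% and 60.0% of 100-base windows shared. Divided by the windows that are their own, the regional level became 14786 CPM per kb for mt-Co1 and 6854 CPM per kb for mt-Nd4. By this value mt-Co1 came before mt-Rnr1 (13309) and after mt-Rnr2 in the regional libraries, so the order of mt-Co1 and mt-Rnr1 there depends on the length used.

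The tRNA genes are 59 to 75 bases long, less than a full read. Their counts cannot separate mature tRNAs from precursor or neighbouring RNA, here and in the comparisons below. Among the tRNA genes, mt-Tp stood far above the others, with a mean of 113 CPM (67.9 to 173) in the regional libraries and 88.0 CPM (49.1 to 135) in the coIP experiment. Of the 22 tRNA genes, 17 had a mean under 1 CPM in the regional and 18 in the coIP experiment, and mt-Tk (lysine) had 0 counts in all 63 libraries. A count of 0 allows up to 3 counts, which is 0.0559 to 0.259 CPM in these libraries, and such floors cover counting error only.

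mt-Tf was the tRNA gene that divided the experiments most sharply. It had 49 to 317 counts in every regional library (2.04 to 11.8 CPM), 0 counts in all 20 WT input and coIP libraries, and 4 to 7 counts in the 4 SPKO ones. mt-Tp, on the other side of the control region, was counted in every one of these libraries.

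The WT and SPKO libraries of the coIP experiment were further separated by other members, whatever the fraction. Of the 27 members tested in the comparison of coIP and input between genotypes, 6 had higher CPM in all 20 WT libraries than in any of the 4 SPKO libraries, against 0.233% of all genes tested, and 2 had lower CPM, against 0.514%. The 2 had few counts in WT, and such genes can pass the filter on low counts through the SPKO libraries alone. No conclusion is therefore drawn from the 2 beside the 0.514%. The 6 were the mRNAs inside the chr1 copy. mt-Atp6 ran from 16.6 to 49.9 CPM in WT and from 11.1 to 14 CPM in SPKO, and mt-Co3 from 7.44 to 20.5 CPM in WT and from 4.24 to 4.94 CPM in SPKO.

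The 2 lower in WT were tRNA genes. mt-Tq had 0 to 0.179 CPM in WT (0 to 4 counts) and 0.723 to 3.96 CPM in SPKO (31 to 177 counts). mt-Tr (arginine) had 0.0374 to 0.302 CPM in WT (1 to 7 counts) and 0.396 to 1.10 CPM in SPKO (17 to 49 counts). The same division ran through the pseudogene Gm29216, which covers the end of the copy in mt-Co1, with 12.2 to 40.3 CPM in WT and 7.18 to 9.61 CPM in SPKO. These separations were noticed in the values and are given as ranges without a test. Genotype and any difference in how the WT and SPKO libraries were prepared cannot be told apart, since each genotype was its own set of libraries.

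The cut fibres end in both DG and CA3, and the lesion was examined first in DG. In SPKO DG the 2 rRNAs, mt-Co1 and mt-Tp were lower after ECL, and no member was higher. That is 4 of 23 members tested, where 3.36% of all genes were called lower and 5.17% higher (quasi-likelihood test of edgeR, called where the p adjusted over all genes by Benjamini-Hochberg was under 0.05). DESeq2 also called 4. The median log2 fold change of the 23 members was -0.07 against 0.01 for all genes.

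mt-Rnr1 ranged from 11347 to 18348 CPM with a median of 14160 in the 7 controls, and read 9070, 10801, 7636 and 6386 CPM in the 4 ECL libraries. Every ECL library was below every control. The log2 fold change was -0.78 (SE 0.14, adjusted p 0.00195 by edgeR).

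mt-Rnr2 ranged from 37351 to 56333 CPM with a median of 44250 in controls, and read 31845, 34986, 27421 and 23233 CPM after ECL. Here too the groups were apart, with a log2 fold change of -0.63 (SE 0.12, adjusted p 0.00304 by edgeR). The 2 rRNAs are neighbours on the same precursor. The ratio of mt-Rnr2 to mt-Rnr1 counts was 3.13 ± 0.118 (SD, n = 7) in controls and 3.49 ± 0.178 (n = 4) after ECL, a difference that was not tested.

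mt-Co1 was the only mRNA called. It ranged from 17230 to 19818 CPM with a median of 18711 in controls and read 11706, 15232, 13476 and 14059 CPM after ECL, a log2 fold change of -0.47 (SE 0.10, adjusted p 0.00718 by edgeR). The control libraries of this gene lie close together and the ECL libraries are all below them. Without the filter on low counts its adjusted p was 0.0647.

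mt-Tp ranged from 110 to 148 CPM with a median of 122 in controls and read 67.9, 101, 88.9 and 99.8 CPM after ECL, a log2 fold change of -0.51 (SE 0.12, adjusted p 0.0168 by edgeR). The groups did not overlap for these 4 members and overlapped for the other 19, against 3.38% of all genes with every ECL library below every control. Without SPKO DG ECL replicate 3 the adjusted p of mt-Tp was 0.0604, and 3 members remained called.

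The other mRNAs did not pass. mt-Cytb ranged from 6045 to 9084 CPM with a median of 7874 in controls and read 8276, 8122, 8675 and 8484 CPM after ECL, a log2 fold change of 0.13 (adjusted p 0.529 by edgeR). Its ECL libraries lie within the range of the controls. The fold changes of mt-Nd1 and mt-Nd6 on the log2 scale were 0.12 and -0.06, of mt-Nd5 -0.20 (adjusted p 0.198) and of mt-Co3 -0.07. Those of the tRNA genes mt-Tf and mt-Tn were -0.38 (adjusted p 0.355) and 0.36 (adjusted p 0.382).

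The mitochondrial share of all counts in SPKO DG was 9.87% ± 0.953 (SD, n = 7) in controls and 7.28% ± 0.698 (n = 4) after ECL, with the 4 ECL libraries at 7.35%, 8.20%, 7.05% and 6.54%, all below the lowest control at 8.97%. Without the rRNA genes it was 3.95% to 4.70% in controls and 3.39% to 3.80% after ECL. The rRNAs made up 59.7% ± 3.17 (SD, n = 7) of the mitochondrial counts in controls and 51.7% ± 5.09 (n = 4) after ECL, and mt-Cytb 7.75% ± 1.33 and 11.6% ± 1.34. These shares sum over the members and are given without a test.

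**Figure D4:**
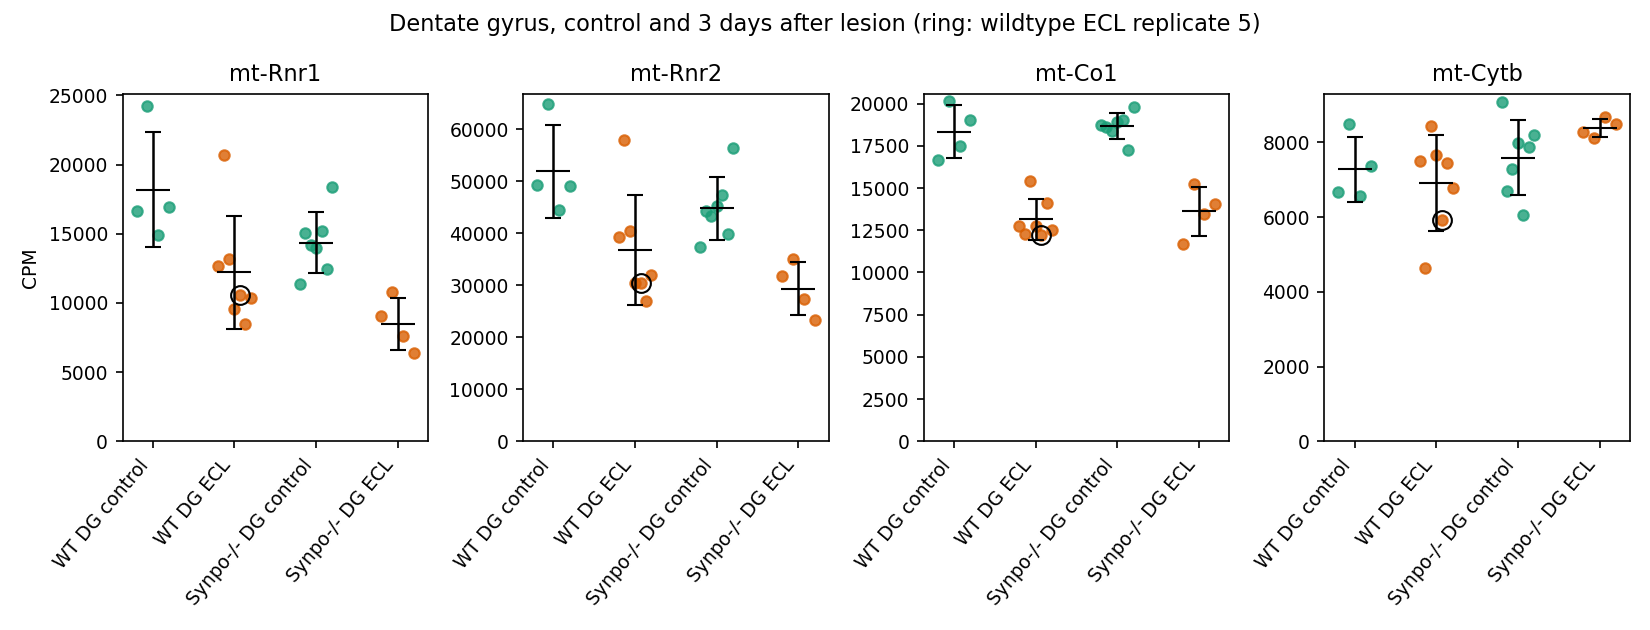
CPM (y axes) of mt-Rnr1, mt-Rnr2, mt-Co1 and mt-Cytb in each DG library (points) of WT and SPKO control and ECL groups, with mean and SD as bars and a ring around WT DG ECL replicate 5. In SPKO DG the ECL libraries lie below all controls for the rRNAs and mt-Co1 and within the control range for mt-Cytb, and in WT DG only mt-Co1 shows groups that do not overlap.

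In WT DG edgeR called 0 of 20 members tested, where 4.31% of all genes were called lower and 7.86% higher. At an unadjusted p under 0.05 there were 2, mt-Co1 and mt-Tp, against 7823 of all 23720 genes tested, and DESeq2 called 0. The same transcripts had values on the lower side. mt-Rnr1 read 16647, 24241, 14896 and 16965 CPM in controls and 8481 to 20699 CPM with a median of 10564 in the 7 ECL libraries. Replicate 2 of the ECL group lay among the controls and the rest below them, and the log2 fold change was -0.43 (SE 0.21, adjusted p 0.156 by edgeR).

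mt-Rnr2 read 49267, 64790, 44438 and 49078 CPM in controls and 27014 to 57969 CPM with a median of 31927 after ECL (log2 fold change -0.36, SE 0.19, adjusted p 0.194 by edgeR). mt-Co1 read 16689, 20180, 17500 and 19036 CPM in controls and 12199 to 15439 CPM with a median of 12741 after ECL. For mt-Co1 alone among the 20, every ECL library was below every control, against 6.11% of all genes, and its log2 fold change was -0.33 (SE 0.13, adjusted p 0.0985 by edgeR).

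mt-Tp read 107, 158, 138 and 150 CPM in controls and 86.9 to 116 CPM with a median of 91.5 after ECL, so that the groups touched (log2 fold change -0.37, SE 0.12, adjusted p 0.0563 by edgeR). mt-Cytb differed by 0.08 and mt-Nd1 by 0.07 on the log2 scale. Without WT DG ECL replicate 5, the library with little Prox1, edgeR called mt-Co1 (-0.38, adjusted p 0.0319) and mt-Tp (-0.42, adjusted p 0.0241). Without ECL replicate 2 mt-Rnr1 was called (-0.62, adjusted p 0.0328). mt-Tp was also called without control replicate 1 (adjusted p 0.0377) and without ECL replicate 3 (adjusted p 0.0454).

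Whether the lesion changed the members differently in the 2 genotypes was tested directly in DG. EdgeR called 0 of 24 members, where 0.00381% of all genes were called higher and 0% lower. 1 member had an unadjusted p under 0.05, against 2730 of all 26245 genes tested, and DESeq2 called 0. The difference of the log2 fold changes (SPKO minus WT) was -0.38 (SE 0.26, adjusted p 0.515) for mt-Rnr1, -0.30 (SE 0.22) for mt-Rnr2, -0.17 (SE 0.16) for mt-Co1 and -0.17 for mt-Tp. Without WT DG ECL replicate 5 it was also 0 of 24, with 1 at an unadjusted p under 0.05. For fits without that library, here and below, the number of all genes at that level is not given. The calls in SPKO DG are thus not shown to be particular to that genotype.

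Microglia and astrocyte markers moved with the lesion in the same libraries. Summed CPM of 10 microglia markers was 628 to 1218 in SPKO DG controls and 1248 to 1840 after ECL, with 8 of 10 called higher, and that of 8 astrocyte markers 4200 to 4898 and 6406 to 9111, with 7 of 8 called higher. In WT DG the microglia markers summed to 547 to 734 and 1204 to 1531 CPM, with 10 of 10 called higher, and the astrocyte markers to 3965 to 4515 and 5132 to 7398 CPM, with 6 of 8. No marker of either list was at 0 in all libraries of a group. Their part in the mitochondrial values was not tested.

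Of 78 nuclear-encoded subunits of complexes I to V, 3 were called higher and 0 lower in SPKO DG (median log2 fold change 0.03), where 5.17% and 3.36% of all genes were called. In WT DG 8 were higher and 0 lower (median 0.26), where it was 7.86% and 4.31%, so the counts of higher calls were near those of all genes. Of 21 genes for the upkeep and transcription of mitochondrial DNA, 0 were called in SPKO DG and 3 in WT DG, all higher. Tfam, which packages mitochondrial DNA and starts its transcription, changed by 0.05 on the log2 scale in SPKO DG (adjusted p 0.837) and by 0.16 in WT DG (adjusted p 0.332 by edgeR). Polrmt, the mitochondrial RNA polymerase, changed by 0.06 (adjusted p 0.888) and 0.17 (adjusted p 0.491). Lrpprc, which stabilises mitochondrial mRNAs, changed by 0.06 (adjusted p 0.785) and 0.19 (adjusted p 0.342), so that none of these 3 passed. Among 17 genes of mitochondrial RNA processing and stability, 1 was higher in each genotype.

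Of the 6 chr1 pseudogenes tested in DG, Gm29216 was lower after ECL in WT (log2 fold change -0.61, SE 0.18, adjusted p 0.0365 by edgeR) and read -0.30 (SE 0.15, adjusted p 0.250) in SPKO. It copies the end of mt-Co1, the mRNA that lay lower in the same libraries. The other 5 were not called in either genotype. Among the WT DG ECL libraries, replicate 5 had the lowest Gm29216 value, 3.74 CPM, and the fit of Gm29216 without it is not given.

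In CA3, which receives the mossy fibres of DG beside its own perforant path input, edgeR called no member after ECL. In WT CA3 it was 0 of 22 tested (1.5% of all genes higher and 0.273% lower), and DESeq2 called 0. An unadjusted p under 0.05 was found for 3 members, against 5348 of all 22340 genes tested. The median log2 fold change of the 22 was -0.21, and in 10 of them all 3 ECL libraries lay below both controls, against 28.8% of all genes in these small groups. mt-Co1 read 17217 and 15827 CPM in controls and 14701, 12342 and 11857 CPM after ECL (-0.22 on the log2 scale), and mt-Rnr2 and mt-Rnr1 differed by 0.09 and 0.01.

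In SPKO CA3 it was 0 of 21 (0.053% higher and 0.0241% lower), and DESeq2 called 0. An unadjusted p under 0.05 was found for 3 members, against 1510 of all 20772 genes tested. The median of the 21 was 0.19. mt-Rnr1 differed by 0.05, mt-Rnr2 by -0.03 and mt-Co1 by 0.04 on the log2 scale. SPKO CA3 ECL replicate 6 had a mitochondrial share of 13.3%, well above the 6.24% to 8.54% of the 5 other libraries of its group. The interaction of genotype and lesion in CA3 gave 0 of 26 members (0% of all genes in either direction), and 0 by DESeq2. There 4 members had an unadjusted p under 0.05, against 4589 of all 26821 genes tested.

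In the WT inputs of whole cultures the lesion gave 0 of 22 members (2.45% higher and 3.16% lower), and DESeq2 called 0. An unadjusted p under 0.05 was found for 3 members, against 3493 of all 17951 genes tested. The mitochondrial share was 2.33% ± 0.146 (SD, n = 5) without and 2.33% ± 0.347 (n = 5) with lesion. mt-Rnr1 differed by -0.30 and mt-Tp by -0.30 (adjusted p 0.222 by edgeR) on the log2 scale. Without WT input ECL replicate 5 mt-Tp was called (-0.42, adjusted p 0.0493 by edgeR).

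Between the regions themselves few members differed. DG against CA3 gave 0 of 22 members in WT controls (2.63% of all genes higher in DG and 2.75% lower). In WT ECL it gave 0 of 24 (1.54% and 0.508%). Both had 0 members at an unadjusted p under 0.05 and 0 by DESeq2. Of all genes, 4521 of 25656 and 4698 of 24029 had such a p. Without WT DG ECL replicate 5, WT ECL gave 0 of 24 and 1 at an unadjusted p under 0.05, mt-Nd1 (-0.27, adjusted p 0.0796 by edgeR). In SPKO ECL edgeR called 0 of 24 (7.37% and 6.24%), and DESeq2 called 3 lower in DG. An unadjusted p under 0.05 was found for 3 members, against 5923 of all 22767 genes tested. Of the transcripts called lower after ECL in SPKO DG, mt-Rnr1 had -0.60 (adjusted p 0.069 by edgeR), mt-Rnr2 -0.45 (adjusted p 0.155), mt-Tp -0.54 (adjusted p 0.0552) and mt-Co1 -0.30 (adjusted p 0.293). Both comparisons use the same SPKO DG ECL libraries.

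In SPKO controls 1 of 22 members was called, mt-Atp6 higher in DG, where 13.1% of all genes were higher and 12.5% lower. mt-Atp6 ranged from 1.54 to 2.06 CPM in CA3 and from 1.88 to 3.51 CPM in DG, with a log2 fold change of 0.57 (SE 0.19, adjusted p 0.0339 by edgeR). The groups overlapped, and the gene lies inside the chr1 copy. Scaled without the mitochondrial genes, or without the filter on low counts, it was not called. The call was also lost without any one of SPKO CA3 control replicates 1, 2, 3, 5 and 6 or SPKO DG control replicates 2, 3, 4 and 7, with adjusted p of 0.0542 to 0.0797 by edgeR.

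SPKO against WT within each region and condition gave no call among the members. In CA3 controls it was 0 of 23 (0.00413% of all genes higher in SPKO and 0% lower), of which 1 had an unadjusted p under 0.05, and in CA3 ECL 0 of 25 (0.00445% in each direction) with 1. In DG controls it was 0 of 22 (0.0124% and 0.00414%) with 0, and in DG ECL 0 of 23 (0.0083% in each direction) with 2. In the same order, 3959 of 24203, 1383 of 22447, 3746 of 24143 and 859 of 24100 genes had an unadjusted p under 0.05. DESeq2 called 0 in all 4 comparisons. Without WT DG ECL replicate 5, DG ECL gave 0 of 23 and 3 at an unadjusted p under 0.05. The largest value of an rRNA was that of mt-Rnr1 in DG ECL, -0.59 (SE 0.22) on the log2 scale.

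The coIP against input comparison moved the members most. In WT control cultures 17 of 22 members tested were higher in the coIP and 0 lower, where 29.6% of all genes were called higher and 25.5% lower. In WT ECL cultures it was 16 of 22 and 0, where 30.5% and 27.8% of all genes were called. The mitochondrial share was higher in the coIP than in the input of every preparation, by a ratio of 1.92, 2.26, 2.28, 1.87 and 2.24 in the 5 control preparations and of 1.93, 1.97, 2.43, 2.38 and 2.41 in the 5 ECL preparations. The titles of the SPKO libraries carry a preparation number and a biological replicate number, which are crossed for the inputs. Matched by preparation number, as done here, the 2 SPKO ratios were 1.69 and 1.81, and matched by biological replicate number they were 2.24 and 1.36. Only the first matching puts both below all 10 of WT. Their coIP libraries (5.15% and 4.15%) lay within or beside the WT coIP range of 4.18% to 6.27%.

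The size of the difference was nearly the same for rRNAs and for mRNAs of every complex in WT control cultures. mt-Rnr2 read 4047, 4850, 3879, 5085 and 4636 CPM in the inputs and 7629, 11666, 8335, 9982 and 10771 CPM in the coIP libraries. All coIP libraries were above all inputs, with a log2 fold change of 0.97 (SE 0.13, adjusted p 1.83e-05 by edgeR), and mt-Rnr1 had 0.98 (SE 0.16, adjusted p 0.000143).

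For mt-Cytb the inputs read 5870, 6252, 6681, 7092 and 6200 CPM and the coIP libraries 11537, 14170, 15917, 13935 and 14510 CPM. These groups were also apart, with a log2 fold change of 0.98 (SE 0.09, adjusted p 1.02e-06 by edgeR). mt-Co1 read 6865, 6915, 5715, 6917 and 6104 CPM in the inputs and 13163, 14570, 12816, 11656 and 12626 CPM in the coIP libraries, and had 0.85 (SE 0.10, adjusted p 5.66e-06).

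Of the complex I members, mt-Nd6 from the other strand had the smallest p: its inputs read 311, 315, 306, 364 and 342 CPM and its coIP libraries 689, 753, 683, 724 and 780 CPM. The log2 fold change was 1.01 (SE 0.08, adjusted p 4.44e-07 by edgeR). The plus-strand mRNAs mt-Nd1 and mt-Nd5 had 0.97 and 0.87. The 13 mRNAs ran from 0.80 to 1.11, those inside the chr1 copy included, and mt-Co3 had 0.84 (adjusted p 0.000157).

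The tRNA gene mt-Tp changed less, with 87.2, 68.8, 69.2, 68.8 and 59.1 CPM in the inputs and 132, 134, 114, 90.0 and 105 CPM in the coIP libraries (log2 fold change 0.56, SE 0.14, adjusted p 0.00308 by edgeR). Its lowest coIP library was close to its highest input. mt-Tn had 0.38 (adjusted p 0.156) and did not pass. Of the 22 members, 18 had every coIP library above every input, against 25.2% of all genes.

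In WT ECL cultures the values were close to these. mt-Rnr1 had a log2 fold change of 0.99, mt-Rnr2 0.96, mt-Co1 0.92, mt-Cytb 1.03, mt-Nd1 1.00 and mt-Nd6 1.02, and mt-Tp 0.62 (adjusted p 0.00686 by edgeR). Of the 13 mRNAs 11 passed, and mt-Nd3 (0.63, adjusted p 0.0504) and mt-Nd4l (0.39, adjusted p 0.142), both inside the chr1 copy, did not. Paired by preparation, the tRNA gene mt-Tm (methionine) lost its call (0.94 unpaired with adjusted p 0.0311, 0.92 paired with adjusted p 0.0598). The call was also lost without any one of input replicates 1, 3, 4 and 5 or coIP replicate 3 of this group, with adjusted p of 0.0565 to 0.105. The tRNA gene mt-Tl1 (leucine) was called in both WT comparisons. Without the filter on low counts its adjusted p by edgeR was 0.0528 in WT control and 0.116 in WT ECL. Its call was also lost without any one of input replicates 3 and 5 or coIP replicates 2 and 5 of WT control. In WT ECL this held for input replicates 2, 3, 4 and 5 and coIP replicates 1, 3 and 5. Of the 22 members, 16 had every coIP library above every input, against 27.4% of all genes.

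**Figure D5:**
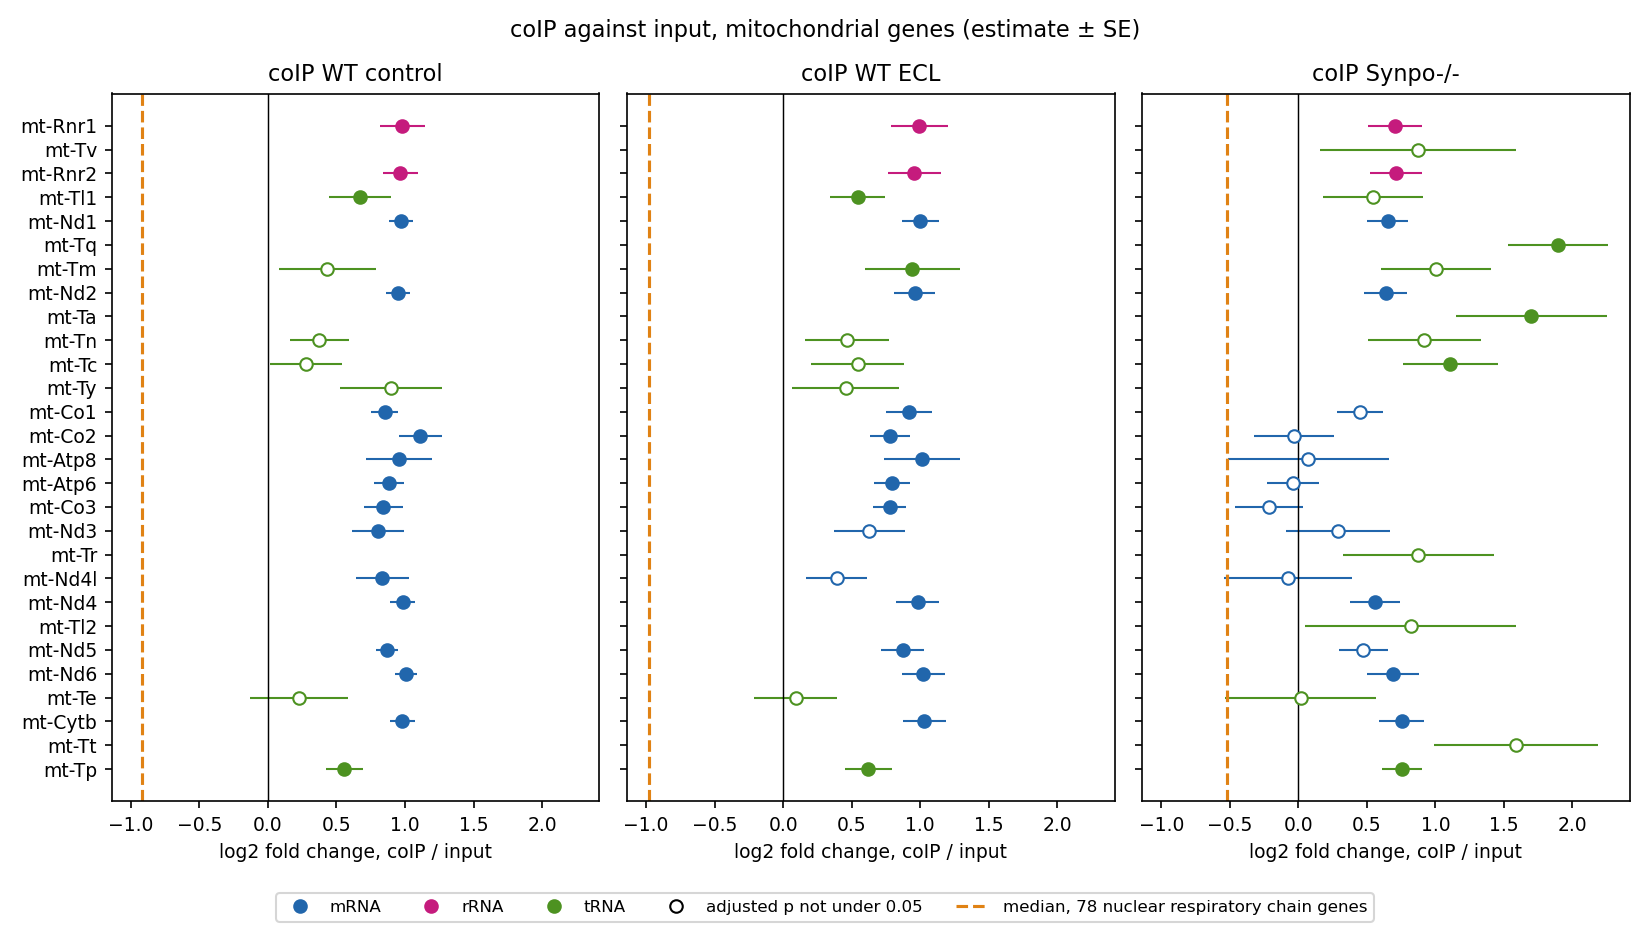
Log2 fold change (coIP over input, x axis) with SE for each tested mitochondrial gene in WT control, WT ECL and SPKO cultures, filled where the adjusted p is under 0.05, with a dashed line at the median of 78 nuclear respiratory chain genes. The 13 mRNAs lie at 0.80 to 1.11 in WT control and at -0.21 to 0.75 in SPKO, and the dashed lines lie at -0.92, -0.98 and -0.52.

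In SPKO cultures 11 of 27 members were higher in the coIP and 0 lower, where 15% of all genes were called higher and 16.4% lower. The members called were both rRNAs, 5 mRNAs and 4 tRNA genes. mt-Cytb read 9360 and 7432 CPM in the inputs of preparations 1 and 2 and 17380 and 14268 CPM in their coIP libraries (log2 fold change 0.75, SE 0.16, adjusted p 0.00465 by edgeR). mt-Rnr2 read 5994 and 4137 CPM in the inputs and 10442 and 8082 CPM in the coIP libraries (0.71, SE 0.19, adjusted p 0.0135). For both transcripts the coIP libraries were above the inputs, as they were for 23 of the 27 members, against 43% of all genes in these groups of 2.

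The complex I mRNAs mt-Nd1, mt-Nd2, mt-Nd4 and mt-Nd6 were called, with 0.65, 0.64, 0.56 and 0.69 on the log2 scale. mt-Co1 (0.45, adjusted p 0.0559) and mt-Nd5 (0.48, adjusted p 0.060) were not, but paired by preparation they passed, with adjusted p 0.00446 and 0.00551 by edgeR. Paired by biological replicate number, the other numbering in the titles, they did not pass (adjusted p 0.0769 and 0.0849). None of the 6 mRNAs inside the chr1 copy was called, and their values ran from -0.21 for mt-Co3 to 0.29 for mt-Nd3. The call count depended on single libraries in these groups of 2, with 4 called without SPKO input replicate 2 and 6 without SPKO coIP replicate 1.

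The 4 tRNA genes called in SPKO were mt-Tp (0.76, SE 0.15, adjusted p 0.00235 by edgeR), mt-Tq (1.89, SE 0.36, adjusted p 0.0024), mt-Ta (1.70, adjusted p 0.0334) and mt-Tc (1.11, adjusted p 0.0288). Paired by biological replicate number, mt-Ta lost its call (adjusted p 0.0577). mt-Tq rests on 42 and 31 counts in the inputs and 177 and 147 in the coIP libraries. In the 20 WT libraries mt-Tq had 0 to 4 counts and mt-Ta 0 to 12, too few to be tested there.

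The direct test of whether coIP against input differed between genotypes (SPKO minus WT control) called 0 of 27 members. Of all genes 0% were called in either direction, and DESeq2 called 3 members. An unadjusted p under 0.05 was found for 4 members, against 1511 of all 20621 genes tested. The difference was -0.18 (SE 0.18) for mt-Cytb, -0.35 (SE 0.19) for mt-Co1, -0.23 (SE 0.31) for mt-Rnr1, -0.27 (SE 0.20) for mt-Nd6 and 0.25 (SE 0.24) for mt-Tp. All 13 mRNAs had values below 0. The 4 at an unadjusted p under 0.05 were mt-Co2 (-1.09), mt-Co3 (-1.01, SE 0.26), mt-Atp6 (-0.87, SE 0.21) and mt-Nd4l (-0.86), all mRNAs inside the chr1 copy, and the first 3 each had an adjusted p of 0.478 by edgeR. Paired by preparation, 2 members were called, and 0 when the SPKO libraries were paired by biological replicate number. The lesion state of the SPKO pools is not in their titles, so it may differ from that of the WT control pools.

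Of 6 chr1 pseudogenes tested, all 6 were called higher in the WT coIP, with log2 fold changes of 0.84 to 1.14 without and 0.75 to 1.32 with lesion. None was called in SPKO, where they ran from -0.56 to 0.26. They did not always follow the mRNA they copy: Gm10222, a copy of mt-Nd4l, had 1.32 with lesion (adjusted p 0.00199 by edgeR) where mt-Nd4l had 0.39 and did not pass, and Gm28439, a copy of part of mt-Nd4, had -0.09 in SPKO where mt-Nd4 was called.

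The nuclear-encoded partners went the other way. Of the 78 nuclear respiratory chain genes, 0 were higher and 64 lower in the coIP of WT control cultures (median -0.92), 0 and 63 in WT ECL (median -0.98), and 1 and 49 in SPKO (median -0.52). The shares of all genes called lower were 25.5%, 27.8% and 16.4%. By complex, in WT control cultures 32 of 36 genes of complex I were lower, 3 of 4 of complex II, 7 of 9 of complex III, 7 of 12 of complex IV and 15 of 17 of complex V. The products of both genomes are parts of the same complexes, and their transcripts moved in opposite directions between input and coIP.

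The coIP fits were repeated with the trend of counts over gene length between libraries removed. In these fits 4 of the 78 nuclear genes were higher and 50 lower in WT control cultures (median -0.40), 5 and 45 in WT ECL, and 8 and 28 in SPKO. The 13 mitochondrial mRNAs had a median of 1.66 with 13 called in WT control, 1.65 with 13 in WT ECL and 0.78 with 7 in SPKO. The shares of all genes called in these fits are not given, so these counts have no background beside them. The medians of both lists kept their sign, and those of the mitochondrial mRNAs lay further from 0.

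Genes that serve the mitochondrial genome from the nucleus had calls in both directions in the coIP. Of 21 genes of upkeep and transcription, 3 were higher and 10 lower in WT control, 3 and 11 in WT ECL, and 2 and 5 in SPKO. Of 17 genes of RNA processing and stability 4 were higher and 8 lower, 5 and 9, and 3 and 5. Of all genes, 29.6% were higher and 25.5% lower in WT control, 30.5% and 27.8% in WT ECL, and 15% and 16.4% in SPKO, and several of these counts are near those shares.

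Among those named, Polrmt had a log2 fold change of 0.95 in WT control, 1.30 in WT ECL and 1.10 in SPKO, and Polg (the DNA polymerase of mitochondria) 0.97, 1.06 and 0.81. Lrpprc had 0.85, 1.01 and 0.75, and Pnpt1 (a mitochondrial RNA-degrading enzyme) 0.61, 0.65 and 0.60. All of these were called. Lower in all 3 were Tfam with -0.78, -0.93 and -0.61 and Tfb2m, a transcription factor of mitochondria, with -0.95, -0.89 and -1.01, also called. Slirp, the binding partner of Lrpprc, was lower in both WT comparisons (-1.36 and -1.51) and not called in SPKO (0.09, adjusted p 0.923 by edgeR), and the DNA helicase gene Twnk was not called in any (0.22, 0.08 and -0.04). Synpo itself had 0.47 in both WT comparisons and -0.03 in SPKO.

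Markers of cell types were set beside these values without a test. Summed CPM of the 8 astrocyte markers was 15952 to 24784 in the WT control inputs and 22142 to 38953 in their coIP libraries, which overlap, and 19858 to 26038 and 22983 to 25126 in SPKO. The 10 microglia markers summed to 819 to 1398 and 673 to 1197 CPM in WT control, which also overlap. The 8 neuron markers summed to 8890 to 9655 CPM in the WT control inputs and 7790 to 8075 CPM in the coIP libraries, which do not. In WT ECL the neuron sums were 7615 to 8885 and 6621 to 8182 CPM, which overlap. In SPKO they were 8979 to 9256 and 7447 to 7937 CPM, which do not. The 4 endothelial markers, at low CPM, were higher in the coIP without overlap. They summed to 5.09 to 6.46 and 9.82 to 11.8 CPM in WT control and 3.85 to 6.17 and 7.93 to 10.6 in WT ECL. In SPKO they summed to 5.90 to 6.66 and 9.39 to 15.8 CPM. The oligodendrocyte sums overlapped between input and coIP in WT control, WT ECL and SPKO. No marker of these lists was at 0 in all libraries of a group, and the part of these cells in the mitochondrial values was not tested.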

How the data were processed

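Regional libraries and the coIP and input libraries of the Synpo-coIP experiment were analysed as deposited. The authors used cutadapt 3.5 for trimming, STAR 2.7.8a for mapping to mm10 and featureCounts 2.0.1 for unstranded exon counts on GENCODE M25, and dropped samples in which 60% or less of the reads mapped uniquely. The deposited values are raw counts per gene symbol; 107 symbols stand for more than 1 gene, and no mitochondrial symbol is among them. No column was left out, no library was identical to another, and the highest correlation between libraries was 0.993. Depth per library was 11601154 to 53682143 counts. Reads carry no molecular identifiers, so intervals and floors cover counting error only.

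Groups came from the labels. Each comparison was fitted on all genes with edgeR 4.0.16 in R 4.3.3 (TMM, filterByExpr, quasi-likelihood test, Benjamini-Hochberg over all genes tested), and the mitochondrial genes were read from that fit. CPM are counts per 1000000 total counts. Alternatives were DESeq2 1.42.0, RLE size factors, scaling without the mitochondrial genes, no filter on low counts, the replicate number as a block, removal of the gene length trend in coIP fits (lowess, span 0.3, genes with a mean count over 50), and leaving out each library. Preparation numbers pair coIP with input, since both come from 1 lysate. The titles of the SPKO inputs also carry a crossed biological replicate number, and pairing by it was added after seeing the data. With preparation numbers, deviations of paired libraries from their group means correlated over 18270 genes with r of 0.229 to 0.539 in WT control, 0.129 to 0.489 in WT ECL and 0.0738 in SPKO. In simulated counts for the 19 comparisons, with 200 genes of mean count over 50 changed 4-fold, 185 to 200 were called. Up to 15 unchanged genes were called too. The simulation set the same spread for all genes, and 4-fold is more than any called member changed. It does not show how often changes of the reported size would be found.

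All 37 genes are given by counts and ranges. Own statistics were given for mt-Rnr1, mt-Rnr2, mt-Co1, mt-Co3, mt-Cytb, mt-Nd1, mt-Nd5, mt-Nd6, the 3 tRNA genes with the highest mean count and up to 2 called members of smallest p in each direction; others named were picked after their values were seen, as were the ranges by genotype across the coIP experiment. The members and lists were chosen with earlier results of these data known. Sequences came from the GRCm38 genome file, and nuclear copies from blastn 2.17.0.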

Additional observations from a re-analysis of the deposited data

Results flagged for a closer look

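In 5 of 100 groups of values examined, 1 library lay apart from the rest of its group by Dixon's criterion, and chance alone gives about 1 in 20 such groups. SPKO CA3 ECL replicate 6 had a mitochondrial share of 13.3% (next highest 8.54%, n = 6) and 2149 CPM of mt-Nd6 (next highest 1225). SPKO DG control replicate 7 had a share of 11.8% (next highest 10.0%, n = 7). In WT DG ECL replicate 2 the rRNAs made up 72.2% of the mitochondrial counts (next highest 60.4%, n = 7), and mt-Rnr1 read 20699 CPM (next highest 13175). These values were not weighed further.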

How the results depend on the processing

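Over 305 recomputed counts of called members, 275 stayed within 1.5 times the reported count, 30 moved and 0 turned direction. Most comparisons had a reported count of 0. There no turn of direction was possible, and a count that stayed at 0 is among the 275. The moved counts were as follows. The lesion in WT DG gave 1 with scaling without mitochondrial genes and 1 with the replicate block. DG against CA3 gave 2 with the block in WT ECL, 0 in SPKO control without mitochondrial genes in the scaling and 0 with no filter, and 3 (DESeq2), 1 (RLE) and 1 (no filter) in SPKO ECL. SPKO against WT gave 2 in CA3 controls and 1 in DG ECL with the block. The interaction of genotype and fraction gave 3 with DESeq2 and 2 with the block. Leaving out 1 library gave 0 to 2 in the lesion in WT DG, 0 to 1 in WT input, 0 to 1 in DG against CA3 in WT and in SPKO controls, 0 to 2 in SPKO ECL and 4 to 13 in the SPKO coIP. Outside the coIP pairs, same-numbered libraries share only a number, and in no such comparison did every pair correlate above 0.1 (4 of 6 pairs did in DG against CA3 in SPKO controls). With this block mt-Co1 after lesion in SPKO DG had an adjusted p of 0.0623 and mt-Atp6 in DG against CA3 of SPKO controls 0.0842, where both were called without it. Pairing the SPKO coIP by biological replicate number, an alternative chosen after seeing the data, gave 10 calls. The cause of these changes was not tested.

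Values that were not called turned sign in a few cases: mt-Rnr1 after lesion in WT CA3 (-0.0042, RLE), mt-Tf there (0.034, block), mt-Co3 (0.15) and mt-Nd6 (0.032) in WT DG and mt-Co3 in SPKO DG (0.00075), all with the block, and mt-Co3 in the SPKO coIP (0.22, length trend removed). Leaving out 1 library, log2 fold changes of the lesion ran through 0 in WT CA3 mt-Rnr1 (-0.21 to 0.17), mt-Rnr2 (-0.10 to 0.23), mt-Nd1 (-0.10 to 0.0046), mt-Tf (-0.37 to 0.010), in WT DG mt-Nd6 (-0.21 to 0.028), in SPKO CA3 mt-Rnr1 (-0.12 to 0.19), mt-Rnr2 (-0.18 to 0.071), mt-Co1 (-0.043 to 0.12), mt-Co3 (-0.11 to 0.44), mt-Nd5 (-0.014 to 0.18), mt-Nd6 (-0.036 to 0.25), mt-Tf (-0.23 to 0.30), mt-Tn (-0.086 to 0.37), in SPKO DG mt-Co3 (-0.16 to 0.014), in WT input mt-Co3 (-0.12 to 0.013), mt-Nd5 (-0.030 to 0.087), mt-Nd6 (-0.021 to 0.12).

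For 6 tRNA genes, with under 10 counts in every library, differences were not detectable at this depth.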
